A study of Mus musculus with 60 samples.

Results

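The genes described here are the mouse genes whose symbols begin with Psma to Psmg followed by a number, the names given to proteasome subunits, their assembly chaperones and their activators. All 50 such rows of the expression table, of 24508 gene rows in all, were taken by name, without regard to their values. They hold 7 alpha and 7 beta subunits of the standard core, 17 subunits of the regulatory particle, 3 inducible catalytic subunits (the immunoproteasome), 5 activator genes and the inhibitor Psmf1, 7 assembly chaperones and 2 tissue-specific core subunits. The remaining row is Psmc3ip, which the name rule takes in although it encodes a meiotic recombination factor and not a proteasome subunit. Of the 50, 49 had a mean of at least 0.5 RPKM (reads per kilobase, scaled for depth) over all libraries and entered the test, among 14446 genes in all, and the exception was Psma8.

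RNA was sequenced from hippocampal tissue of wild-type (WT) and R6/1 mice aged 30 weeks, 9 libraries of each genotype from independent biological replicates, all on a mixed CBA and C57BL/6 background. R6/1 is a transgenic line used to model Huntington's disease, and it carries exon 1 of human huntingtin with a lengthened CAG repeat. The transgene comes in addition to the mouse's own huntingtin genes and encodes a fragment of the protein, so the line models the fragment and not the full-length human protein. The study also mapped domains of chromatin in contact with the nuclear lamina, by lamin B1 ChIP-seq of both genotypes, and these are used below for the positions of the genes.

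The proteasome degrades proteins tagged with ubiquitin. Its core is a barrel of stacked rings, in which outer alpha rings form the gate and inner beta rings hold the proteolytic sites. The regulatory particle caps the barrel: its base, with a ring of ATPases, unfolds substrates and opens the gate, and its lid removes the ubiquitin chain. In immune and inflamed tissue, inducible beta subunits replace the standard catalytic ones, and in the brain, neurons rely on the proteasome to clear misfolded proteins, among them huntingtin fragments.

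The promoters of the subunits are shown first, because most subunits moved in the same direction and a promoter can be searched for sequences they share. RefSeq promoters (250 bases before and 50 after the start of the gene, table of build GRCm38.p6) were found for 42 of the 50 members, 45 promoters in all, and each matched 1 place on the NCBIM37 (mm9) genome. The stretches printed are those of regulatory particle subunits that hold an ETS motif, and of 2 catalytic core subunits that hold an ARE-like motif, wherever the match lay outside annotated exons. Each runs 5′ to 3′ from 150 bases before the RefSeq start up to that start or to the first annotated exon, with NCBIM37 coordinates, and capitals mark matches to the searched motifs.
Psmc1 (chr12:101348262-101348395, plus strand): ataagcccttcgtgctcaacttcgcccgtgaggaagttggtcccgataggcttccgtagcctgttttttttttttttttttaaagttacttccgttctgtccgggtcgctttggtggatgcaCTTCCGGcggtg
Psmc6 (chr14:45949349-45949498, plus strand): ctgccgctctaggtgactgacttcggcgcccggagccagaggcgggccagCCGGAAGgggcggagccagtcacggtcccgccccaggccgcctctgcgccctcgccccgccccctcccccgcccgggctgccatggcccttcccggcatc
Psmd2 (chr16:20651575-20651724, plus strand): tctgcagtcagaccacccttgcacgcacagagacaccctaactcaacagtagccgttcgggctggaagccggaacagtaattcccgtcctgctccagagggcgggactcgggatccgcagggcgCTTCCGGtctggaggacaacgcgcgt
Psmd4 (chr3:94846537-94846686, minus strand): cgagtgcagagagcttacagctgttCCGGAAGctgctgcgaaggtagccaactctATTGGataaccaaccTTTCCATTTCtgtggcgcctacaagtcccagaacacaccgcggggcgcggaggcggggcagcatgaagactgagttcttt
Psmd11 (chr11:80241967-80242116, plus strand): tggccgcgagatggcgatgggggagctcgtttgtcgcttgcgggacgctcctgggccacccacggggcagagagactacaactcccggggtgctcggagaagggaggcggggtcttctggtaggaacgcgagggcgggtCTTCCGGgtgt
Psmb5 (chr14:55236852-55236982, minus strand): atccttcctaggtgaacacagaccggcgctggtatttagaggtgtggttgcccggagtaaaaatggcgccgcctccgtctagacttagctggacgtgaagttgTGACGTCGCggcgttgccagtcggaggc
Psmb6 (chr11:70338709-70338858, plus strand): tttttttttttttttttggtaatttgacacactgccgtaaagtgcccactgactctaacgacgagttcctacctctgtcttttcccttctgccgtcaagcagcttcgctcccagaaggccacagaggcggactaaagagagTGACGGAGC

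Motifs were searched on both strands as plain letters: CCGGAAG for the ETS family, TGACNNNGC for the antioxidant response element (ARE-like, bound by Nfe2l1 and Nfe2l2), CCAAT for the CCAAT box and a pair of GAAA with 2 free bases between them for the interferon-stimulated response element (ISRE-like). The capitals in Psmc1, Psmc6, Psmd2 and Psmd11 are ETS matches, those in Psmb5 and Psmb6 are ARE-like matches, and those in Psmd4 are in order an ETS, a CCAAT and an ISRE-like match. The ETS match lies 26 to 20 bases before the start in Psmd2 and 11 to 5 bases before it in Psmd11. Of the 45 member promoters, 16 (35.6%) held the ETS motif, against 8.86% of all 32851 promoters and 15.4% of the promoters of tested genes. Among the promoters of standard core and regulatory particle subunits 11 of 27 (40.7%) held it. The median GC content was 57.3% in the member promoters, 52.7% in all promoters and 60.7% in those of tested genes.

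The ARE-like letters stood in 6 of 45 member promoters (13.3%), close to the 12.4% of all promoters. The CCAAT box was in 33.3% of member promoters, 37.4% of all promoters and 37.1% of those of tested genes. The ISRE-like letters were in 5 of 45 member promoters (11.1%), against 3.44% of all promoters and 2.84% of those of tested genes. The members that held them were Psmb3, Psmd4, Psmd9, Psme1 and Psmg4. The promoters of the inducible subunits Psmb8, Psmb9 and Psmb10 held no such match. A match is a string of letters, and no binding was measured at it. The log2 fold change between genotypes, given below as the log2 change and always R6/1 minus WT, had a median of 0.21 over the 15 tested members with an ETS match, of which 12 were higher and 1 lower in R6/1, and of 0.19 over the 27 without, of which 20 were higher and 0 lower. That difference was not tested. Higher and lower here are calls of the test described in the next paragraph. By that test 38 of the 49 tested members were higher and 1 lower. Over all tested genes 24.8% were higher and 23.5% lower. The 6 members with ARE-like letters had a median of 0.16, with 3 higher and 1, Psme4, lower. The 36 without them had a median of 0.21, with 29 higher and 0 lower, and this difference was not tested either.

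Expression of the proteasome genes was higher in R6/1 than in WT hippocampus across nearly the whole complex, by small amounts. Of the 49 tested members, 38 were higher, 1 was lower and 10 did not pass the test, which was limma on log2(RPKM + 0.5) with Benjamini-Hochberg adjustment over all tested genes and a threshold of 0.05. Across all tested genes 24.8% were higher and 23.5% were lower in R6/1, so that 48.3% were called in either direction and 51.4% of the calls were increases. With libraries scaled to equal totals of reads, increases made up 66.9% of all calls, and 42 members were higher and 1 lower. The median log2 fold change was 0.20 over the members and 0.0036 over all tested genes, and 46 of the 49 members had a positive value. The members called higher rose by between 7.64% and 39.9% of the WT mean, with a median of 17.5%, and 0 members reached an absolute log2 fold change of 0.5.

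In 10 members every R6/1 library lay above every WT library, which was so for 5.50% of all tested genes. WT libraries all lay above R6/1 libraries in 0 members and in 6.38% of all tested genes. Well expressed genes are measured more precisely, so the same shares were also taken over the 1603 genes that lie within the range of levels of the 31 standard core and regulatory particle subunits, a comparison chosen after seeing the data. There 31.6% were higher, 31.0% were lower and 8.36% had all R6/1 libraries on top, against 28, 0 and 10 of the 31 subunits. Summed over all members, the level ran from 1812 RPKM over a median of 1909 to 1995 RPKM in WT libraries and from 2076 over 2202 to 2363 RPKM in R6/1 libraries, with no overlap.

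**Figure D1:**
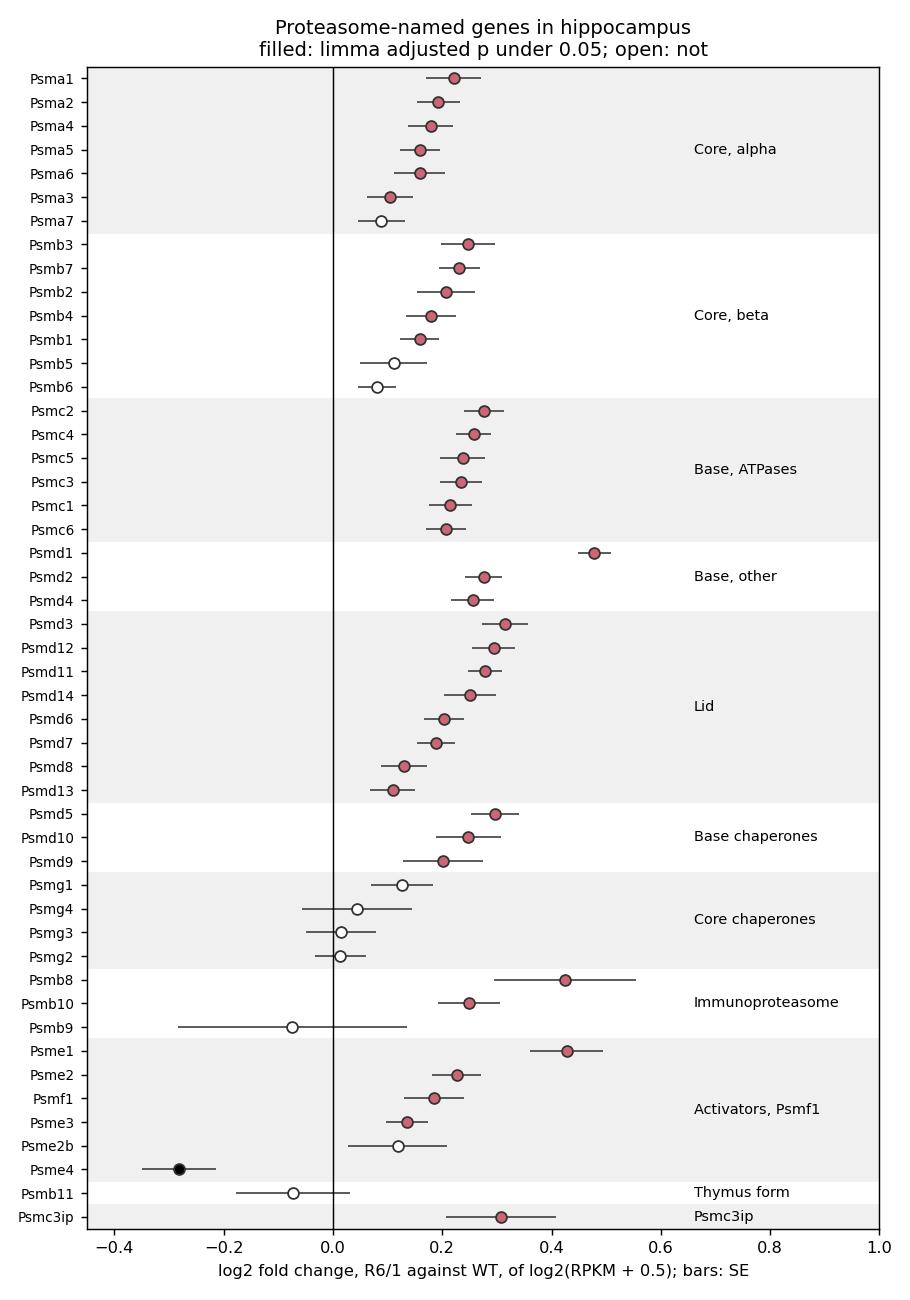
Log2 fold change of R6/1 against WT (x axis, on log2(RPKM + 0.5); bars are standard errors) for the 49 tested members, grouped by their place in the complex. All 17 regulatory particle subunits sit to the right of 0 as filled points, Psme4 is the single filled point on the left, and the 4 core chaperones are open points.

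These are libraries of whole tissue, in which fewer cells of a type and less RNA per cell cannot be told apart, and marker genes of several cell types moved as well. Of 10 markers of hippocampal neurons 9 were lower in R6/1 and 0 higher, and their summed level was between 2629 and 3146 RPKM in WT and between 1701 and 1975 RPKM in R6/1 libraries. Lower markers numbered 7 of 8 for astrocytes, 4 of 8 for oligodendrocytes and 5 of 12 for microglia, with 0 higher in each, where 23.5% of all tested genes were lower. In endothelium 2 of 8 were lower and 0 higher, a share of lower genes near that background. Summed astrocyte markers ran from 1146 to 1507 RPKM in WT and from 913.5 to 1177 RPKM in R6/1, and oligodendrocyte markers from 1015 to 1295 and from 633 to 1089.5 RPKM. Endothelial markers summed to between 79.1 and 112 RPKM in WT and between 70.1 and 109.99 RPKM in R6/1. None of these markers was at 0 in all libraries. Their part in the higher proteasome levels was not tested as a cause. With the summed neuron markers as a covariate, an analysis chosen after seeing the data, limma called 6 members higher and 0 lower, while calls over all genes fell from 3586 to 595 higher and from 3394 to 453 lower. In that fit the median standard error of the members rose from 0.0431 to 0.204 (the marker sums of the genotypes do not overlap), and the members' median log2 fold change was 0.34 with 44 of 49 positive. The 6 that remained called were Psmb3, Psmb7, Psmd1, Psmd2, Psmd5 and Psmd6.

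Library depth was 12299434 to 16457022 reads on genes in WT and 13260311 to 16736544 in R6/1, recovered from the steps of the deposited values. The standard subunits were all well measured, from 527 reads for the lowest library of Psmb3 to 4456 for the highest of Psmd2. In 19 of the 31 standard subunits the highest R6/1 library was replicate 2, and without it 36 members were called higher.

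Standard subunits were among the abundant messages of this tissue. The highest WT means were those of the core beta genes Psmb4 with 91.1 ± 5.40 RPKM, Psmb1 with 90.3 ± 4.46 and Psmb7 with 90.1 ± 4.62 (SD, n = 9), followed by the ATPase Psmc5 with 88.7 ± 3.44. These 4 values lie within each other's spread. The lowest standard subunit was the lid gene Psmd11 with 29.5 ± 1.14 RPKM (SD, n = 9). Core alpha subunits had WT means of 35.4 to 67.9 RPKM and lid subunits of 29.5 to 50.3 RPKM.

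The outer ring of the core was modestly higher in R6/1. Of 7 alpha subunits 6 were higher and 1, Psma7, did not pass the test, with log2 fold changes of 0.09 to 0.22 and a median of 0.16. Psma1, the alpha 6 subunit, had the largest difference: WT libraries lay at 40.7, 44.7 and 52.3 RPKM (lowest, median, highest) and R6/1 libraries at 45.6, 52.5 and 57.8 RPKM. The genotypes overlapped, with 5 of 9 R6/1 libraries above the highest WT library, and the log2 change was 0.22 (SE 0.0502, limma adjusted p = 0.00114). Psma2, the alpha 2 subunit, lay at 63.8, 66.8 and 77.0 RPKM in WT and at 69.5, 78.6 and 82.1 RPKM in R6/1. Here 6 of 9 R6/1 libraries stood above the highest WT library, for a log2 change of 0.19 (SE 0.0387, limma adjusted p = 0.000362). The call of Psma3 (0.10, limma adjusted p = 0.0431) sat at the threshold and was lost when any of 12 single libraries was left out (WT replicates 3 to 8 and R6/1 replicates 1, 2, 3, 4, 8 and 9), with adjusted p between 0.0523 and 0.0866. Psma7 (0.09, limma adjusted p = 0.0957) passed without WT replicate 2 (0.0379) or R6/1 replicate 5 (0.0332). It also passed with equal totals of reads, at a log2 change of 0.16 (limma adjusted p = 0.00546), and with quantile normalization, at 0.12 (limma adjusted p = 0.0239).

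The inner ring holds the 3 proteolytic sites, and 1 of their 3 genes passed the test. Psmb7, which carries the trypsin-like site, was at 84.1, 90.1 and 97.6 RPKM in WT and at 93.5, 106.9 and 112.6 RPKM in R6/1. In 8 of 9 R6/1 libraries it exceeded the highest WT library, with a log2 change of 0.23 (SE 0.0372, limma adjusted p = 3.79e-05). Psmb5, which carries the chymotrypsin-like site, was at 54.2, 64.5 and 76.0 RPKM in WT and at 62.2, 65.2 and 78.4 RPKM in R6/1. Its medians were nearly equal and its ranges overlapped, and a log2 change of 0.11 (SE 0.0611) did not pass the test (limma adjusted p = 0.140). Psmb6, which carries the caspase-like site, was at 55.9, 59.2 and 64.3 RPKM in WT and at 59.8, 62.3 and 70.1 RPKM in R6/1. Every R6/1 library lay above the WT median, but 2 of 9 lay above the highest WT library, and a log2 change of 0.08 (SE 0.0349) missed the threshold (limma adjusted p = 0.0643).

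Whether Psmb5 and Psmb6 differ from Psmb7 in their response was not tested. Both passed the threshold when libraries were scaled to equal totals of reads, with a log2 change of 0.18 (limma adjusted p = 0.00618) for Psmb5 and of 0.15 (limma adjusted p = 0.000803) for Psmb6, and with quantile normalization (limma adjusted p = 0.00887 for Psmb5 and 0.00144 for Psmb6). Without WT replicate 1 they also passed, with limma adjusted p = 0.0341 for Psmb5 and 0.03 for Psmb6, and Psmb6 also without WT replicate 3 (0.0364) or R6/1 replicate 7 (0.0453). The 4 beta subunits without a proteolytic site, Psmb1, Psmb2, Psmb3 and Psmb4, were all higher, and Psmb3 had the largest difference of them. It was at 52.4, 57.9 and 64.7 RPKM in WT and at 57.4, 70.9 and 76.5 RPKM in R6/1, a log2 change of 0.25 (SE 0.0498, limma adjusted p = 0.00038). R6/1 replicate 5 was the low library, and the other 8 lay above all WT libraries.

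**Figure D2:**
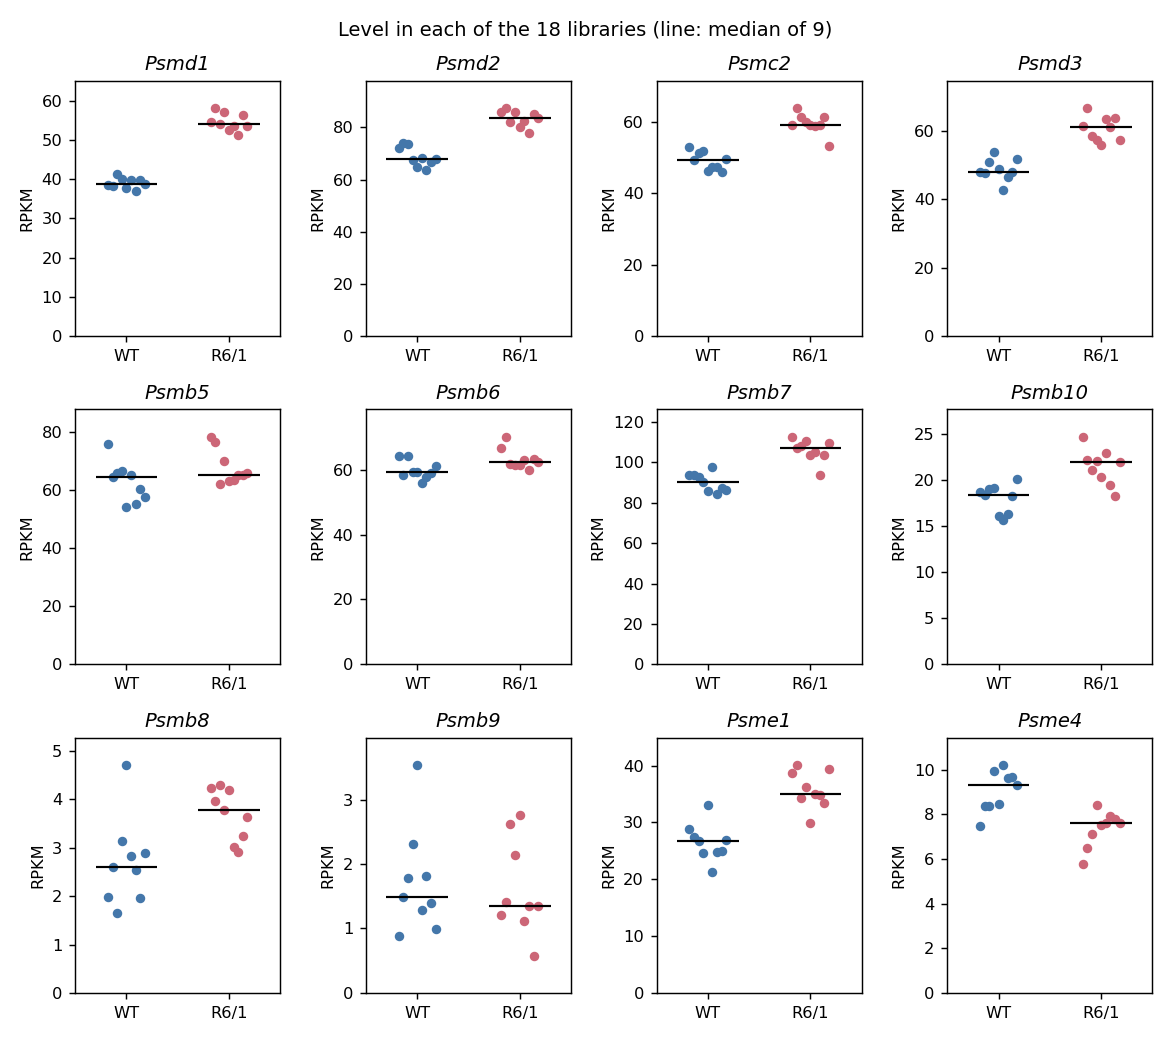
RPKM (y axis, from 0) of 12 members in each of the 9 WT and 9 R6/1 libraries; each point is a library and each line the median of 9. Psmd1, Psmd2, Psmc2 and Psmd3 show no overlap between genotypes, Psmb5, Psmb6 and Psmb9 overlap widely, and Psme4 runs the other way.

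The base of the regulatory particle rose as a whole: all 6 ATPases and all 3 non-ATPase subunits were higher in R6/1, and in 6 of the 9 the genotypes did not overlap. Psmd1, the scaffold subunit Rpn2, had the largest difference of all members. Its WT libraries lay at 37.0, 38.8 and 41.4 RPKM and its R6/1 libraries at 51.3, 54.2 and 58.0 RPKM. The lowest R6/1 library was thus well above the highest WT library, and the mean went from 39.0 ± 1.34 to 54.6 ± 2.19 RPKM (SD, n = 9 each), a log2 change of 0.48 (SE 0.0298, limma adjusted p = 1.44e-10). On NCBIM37, Psmd1 lies at chr1:87960962-88059363 on the plus strand. Exons of Armc9 on the same strand and of Htr2b on the other overlap its exons. Opposite-strand exons of other genes also overlap those of Psma4, Psma5, Psmb7, Psmb8, Psmc3, Psmc3ip, Psmd3, Psmd13 and Psme1. Psmb5 has such an overlap on the same strand, with Mir686. Whether reads at these places were assigned by strand is not given in the sources used here.

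Psmd2, the scaffold subunit Rpn1 that docks ubiquitin carriers, was at 63.8, 68.0 and 74.1 RPKM in WT and at 77.9, 83.7 and 87.3 RPKM in R6/1. Its genotypes did not overlap, and the log2 change was 0.28 (SE 0.0339, limma adjusted p = 1.54e-06). The ratio of Psmd1 to Psmd2, a quantity within each library, was 0.515, 0.579 and 0.595 in WT and 0.636, 0.658 and 0.665 in R6/1, again with no overlap. Among the ATPases, which form the unfolding ring, Psmc2 (Rpt1) had the largest difference, from 45.9, 49.1 and 53.0 RPKM in WT to 53.1, 59.0 and 63.7 RPKM in R6/1. Its lowest R6/1 library, replicate 9, stood just above the highest WT library, with a log2 change of 0.28 (SE 0.0365, limma adjusted p = 3.73e-06). The 6 ATPases kept close together, with log2 fold changes from 0.21 to 0.28. Psmc3, Psmc4 and the ubiquitin receptor Psmd4 likewise showed no overlap.

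All 8 lid subunits among the members were also higher, with log2 fold changes of 0.11 to 0.31 and no overlap in 4 of them. Sem1, a lid subunit that the name rule does not take in, was not called, with a log2 change of -0.02 (limma adjusted p = 0.734). Psmd3 (Rpn3) lay at 42.7, 48.1 and 53.8 RPKM in WT and at 56.1, 61.1 and 66.7 RPKM in R6/1, for a log2 change of 0.31 (SE 0.0427, limma adjusted p = 5.18e-06). Psmd12 (Rpn5) lay at 28.7, 32.8 and 34.2 RPKM in WT and at 36.7, 39.7 and 43.8 RPKM in R6/1, for a log2 change of 0.29 (SE 0.0392, limma adjusted p = 4.20e-06). In both genes the ranges were apart, as they were in Psmd6 and Psmd11. Psmd14, the deubiquitinase that cuts the chain from the substrate, rose by 19.2% of its WT mean (log2 fold change 0.25, limma adjusted p = 0.000181). At the low end, Psmd13 (0.11, limma adjusted p = 0.0323) lost its call when any of 6 single libraries was left out (WT replicate 5, 7 or 8, or R6/1 replicate 1, 4 or 8), with adjusted p between 0.0522 and 0.0667.

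Set side by side, the 14 core subunits had a median log2 fold change of 0.17 and the 17 regulatory particle subunits one of 0.25. All 10 members without overlap belonged to the regulatory particle and 0 to the core. In each library the mean log2 difference from the WT mean was taken over either group. For the core it was -0.08, 0.01 and 0.07 in WT (lowest, median, highest) and 0.04, 0.18 and 0.27 in R6/1, with 8 of 9 R6/1 libraries above all WT libraries. For the regulatory particle it was -0.07, 0.01 and 0.06 in WT and 0.19, 0.24 and 0.33 in R6/1, with no overlap. Regulatory particle minus core was -0.04, -0.0022 and 0.05 in WT and 0.03, 0.07 and 0.15 in R6/1, where 8 of 9 R6/1 libraries exceeded the highest WT library. A common scaling factor of a library cancels in this difference. The values were not tested, since the groups were made with results of these data known.

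**Figure D3:**
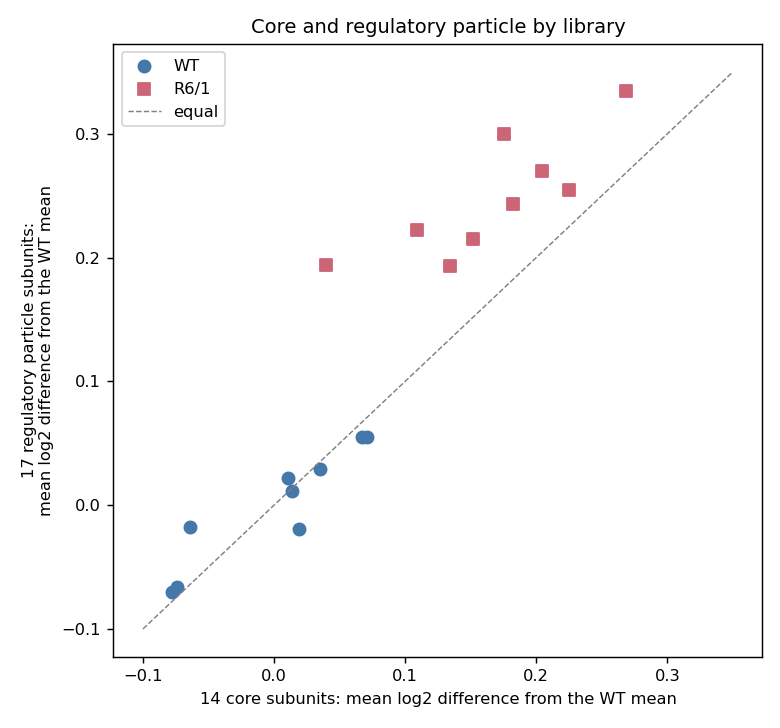
Mean log2 difference from the WT mean over the 14 core subunits (x axis) and the 17 regulatory particle subunits (y axis), one point per library, with a dashed line where both are equal. WT points scatter around the line near 0, and the R6/1 points lie above the line, between 0.19 and 0.33 on the y axis.

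Of the assembly factors, the 3 chaperones of the base were higher in R6/1. Psmd5 (S5b) was at 18.4, 21.4 and 23.7 RPKM in WT and at 23.4, 26.6 and 27.8 RPKM in R6/1, a log2 change of 0.30 (SE 0.0446, limma adjusted p = 1.72e-05), with 8 of 9 R6/1 libraries above every WT library. Psmd10 (gankyrin) was at 6.01, 7.13 and 8.48 RPKM in WT and at 7.98, 8.39 and 9.98 RPKM in R6/1, a log2 change of 0.25 (SE 0.0597, limma adjusted p = 0.00185). Its ranges overlapped, but all R6/1 libraries exceeded the WT median. Psmd9 (p27) had a log2 change of 0.20 (limma adjusted p = 0.0286), a call lost without WT replicate 3 or without R6/1 replicate 2, 7 or 8, with adjusted p between 0.0538 and 0.0557.

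None of the 4 chaperones of the core was called. Log2 fold changes were 0.13 for Psmg1 (limma adjusted p = 0.0738), 0.01 for Psmg2 (limma adjusted p = 0.827), 0.01 for Psmg3 (limma adjusted p = 0.866) and 0.04 for Psmg4 (limma adjusted p = 0.747). Their WT means were 6.998 to 11.9 RPKM, and their standard errors, 0.0458 to 0.101, compare with 0.0298 to 0.0611 among the standard subunits. Psmg1 passed under equal totals of reads (limma adjusted p = 0.00693) and without WT replicate 8 (limma adjusted p = 0.00884) or replicate 1 (limma adjusted p = 0.0428). Pomp, which also helps to assemble the core, was at 79.9, 86.1 and 100.2 RPKM in WT and at 75.7, 87.3 and 93.6 RPKM in R6/1, with a log2 change of 0.0029 (limma adjusted p = 0.964). Whether core and base chaperones differ in their response was not tested.

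The immunoproteasome genes were low or moderate in hippocampus, and 2 of 3 were higher in R6/1. Psmb10, the inducible counterpart of Psmb7, was at 15.6, 18.4 and 20.1 RPKM in WT and at 18.3, 21.9 and 24.7 RPKM in R6/1. In 7 of 9 R6/1 libraries it lay above the highest WT library, with a log2 change of 0.25 (SE 0.0568, limma adjusted p = 0.00116). Psmb8, the counterpart of Psmb5, was at 1.66, 2.61 and 4.71 RPKM in WT and at 2.91, 3.79 and 4.29 RPKM in R6/1. All R6/1 libraries lay above the WT median and 0 above the highest WT library, replicate 5, and the log2 change was 0.42 (SE 0.130, limma adjusted p = 0.0103). These values rest on 24 to 91 reads per WT library and 49 to 92 per R6/1 library. Psmb9, the counterpart of Psmb6, was at 0.878, 1.49 and 3.53 RPKM in WT and at 0.574, 1.35 and 2.76 RPKM in R6/1. With 7 to 45 reads per library, its log2 fold change of -0.07 (SE 0.210) did not pass the test (limma adjusted p = 0.795).

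WT replicate 5 was the highest WT library for both Psmb8 and Psmb9, and also the WT library with the highest summed level of 12 microglia markers. That sum ran over 223, 271 and 394 RPKM in WT and over 193, 247 and 299 RPKM in R6/1, and its part in the Psmb8 and Psmb9 values was not tested as a cause. With it as a covariate, a fit chosen after seeing the data, Psmb9 had a log2 change of 0.04 (limma adjusted p = 0.894). As a share of its standard counterpart within each library, Psmb8 over Psmb5 was 2.51%, 4.34% and 8.69% in WT and 4.47%, 5.40% and 6.90% in R6/1. Psmb9 over Psmb6 was 1.37%, 2.55% and 5.96% in WT and 0.906%, 2.16% and 4.50% in R6/1. Psmb10 over Psmb7 was 16.03%, 19.9% and 23.3% in WT and 17.6%, 20.04% and 21.9% in R6/1. All 3 shares overlapped between genotypes, and the medians of the last were nearly the same.

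**Figure D4:**
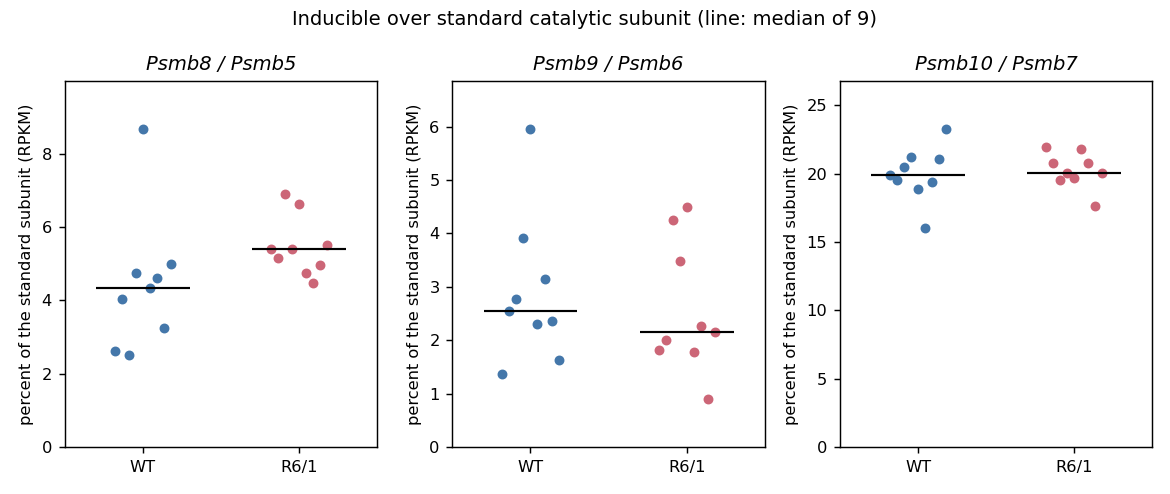
Level of each inducible catalytic subunit as a percent of its standard counterpart (y axes, RPKM over RPKM) in the 9 WT and 9 R6/1 libraries; lines are medians of 9. Genotypes overlap in all 3 panels, with Psmb10 near 20% of Psmb7 and the other inducible subunits below 10% of theirs.

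Of 12 genes of antigen presentation, the pathway that the immunoproteasome feeds, 11 were tested. Among these 1 was higher and 0 were lower, where 24.8% of all tested genes were higher and 23.5% lower. The median log2 fold change of the list was 0.02. The one called was Tap2, a peptide transporter encoded beside Psmb8 and Psmb9, with a log2 change of 0.53 (SE 0.0773, limma adjusted p = 1.15e-05). It lay at 4.75, 5.04 and 7.14 RPKM in WT and at 6.11, 8.05 and 9.09 RPKM in R6/1, with overlapping ranges. B2m, the light chain of class I molecules, had a log2 change of -0.26 (SE 0.170) that did not pass the test (limma adjusted p = 0.211).

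The activators, which open the core without ubiquitin, went in both directions. Psme1 (PA28 alpha) was at 21.3, 26.8 and 33.0 RPKM in WT and at 29.9, 34.9 and 40.0 RPKM in R6/1, a log2 change of 0.43 (SE 0.0671, limma adjusted p = 2.81e-05). Its partner Psme2 (PA28 beta) was at 15.7, 16.7 and 18.7 RPKM in WT and at 18.2, 19.96 and 22.1 RPKM in R6/1, a log2 change of 0.23 (SE 0.0449, limma adjusted p = 0.00032). Ranges overlapped in both, with 8 and 7 of 9 R6/1 libraries above the highest WT library. The genes lie on chromosome 14 with 5911 bp between them, on opposite strands, and exons of Psme1 overlap those of Fam158a on the opposite strand. Psme2b, a near-identical copy of Psme2 with which it may share reads, had a log2 change of 0.12 (limma adjusted p = 0.292).

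Psme3 (PA28 gamma, the nuclear activator) was at 36.0, 40.2 and 41.7 RPKM in WT and at 39.0, 43.8 and 47.2 RPKM in R6/1. The difference was small, with a log2 change of 0.14 (SE 0.0382, limma adjusted p = 0.00597) and 7 of 9 R6/1 libraries above the highest WT library. Psmf1 (PI31), known as an inhibitor of the core in the test tube, was at 8.18, 9.56 and 10.0 RPKM in WT and at 8.74, 10.6 and 12.7 RPKM in R6/1, a log2 change of 0.19 (SE 0.0547, limma adjusted p = 0.00825).

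Psme4 (PA200, a single-chain nuclear activator) was the one member that was lower in R6/1. It lay at 7.46, 9.30 and 10.2 RPKM in WT and at 5.77, 7.60 and 8.42 RPKM in R6/1. No R6/1 library reached the WT median and 3 fell below the lowest WT library, and the log2 change was -0.28 (SE 0.0676, limma adjusted p = 0.00175). Psme4 remained lower, past the threshold, in every fit run other than the one with the neuron marker covariate, where it was -0.16 (limma adjusted p = 0.815).

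The tissue-specific forms were the members with the lowest levels. Psma8, the testis form of the alpha 4 subunit, was at 0.118 to 0.367 RPKM in WT and 0.0707 to 0.301 RPKM in R6/1, or 2 to 10 reads per library, and was not tested. Psmb11, the thymus counterpart of Psmb5, was at 0.457 to 0.994 RPKM in WT and at 0.376 to 0.8497 RPKM in R6/1 and was not called (limma adjusted p = 0.586). It lies 7295 bp from Psmb5. Psmc3ip, the recombination factor, was at 1.13, 1.64 and 2.43 RPKM in WT and at 1.64, 2.07 and 2.77 RPKM in R6/1, a log2 change of 0.31 (SE 0.1004, limma adjusted p = 0.0155). In the authors' deposited table its adjusted p was 0.0655.

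Genes that work with the proteasome were described from lists of known partners. Of 16 partners, which are further subunits, deubiquitinases, assembly factors and regulators, 8 were higher and 0 lower, with a median log2 fold change of 0.12. Among all tested genes 24.8% were higher and 23.5% lower. Adrm1, a ubiquitin receptor of the base, went from 36.8, 40.1 and 43.3 RPKM in WT to 46.9, 55.1 and 60.6 RPKM in R6/1, a log2 change of 0.42 (SE 0.0466, limma adjusted p = 4.68e-07). AI314180, the gene of the Ecm29 adaptor that ties the cap to the core, had a log2 change of 0.33 (limma adjusted p = 4.62e-07), and both showed no overlap between genotypes. Ubr4, a ubiquitin ligase, had a log2 change of 0.29 (limma adjusted p = 0.00352). The transcription factor Nfe2l1, known to drive proteasome genes when proteasome activity falls short, was not called, with a log2 change of 0.07 (limma adjusted p = 0.0686). Nfe2l2 was not called either, at 0.01 (limma adjusted p = 0.952). These are RNA levels, and the activity of either factor was not measured.

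Of 15 genes for ubiquitin, its activation and the delivery of substrates, 11 were higher and 0 lower, with a median log2 fold change of 0.15. The shares over all tested genes were 24.8% higher and 23.5% lower. Sqstm1, a receptor for ubiquitinated cargo, went from 168, 180 and 208 RPKM in WT to 237, 256 and 282 RPKM in R6/1, a log2 change of 0.47 (SE 0.0454, limma adjusted p = 6.13e-08). Vcp, the ATPase that extracts ubiquitinated proteins, went from 93.6, 99.5 and 110.8 RPKM in WT to 129.6, 132.8 and 143.3 RPKM in R6/1, a log2 change of 0.41 (SE 0.0349, limma adjusted p = 9.63e-09). Uba6, a ubiquitin-activating enzyme, had a log2 change of 0.32 (limma adjusted p = 1.72e-05). In all 3 genes every R6/1 library lay above every WT library.

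**Figure D5:**
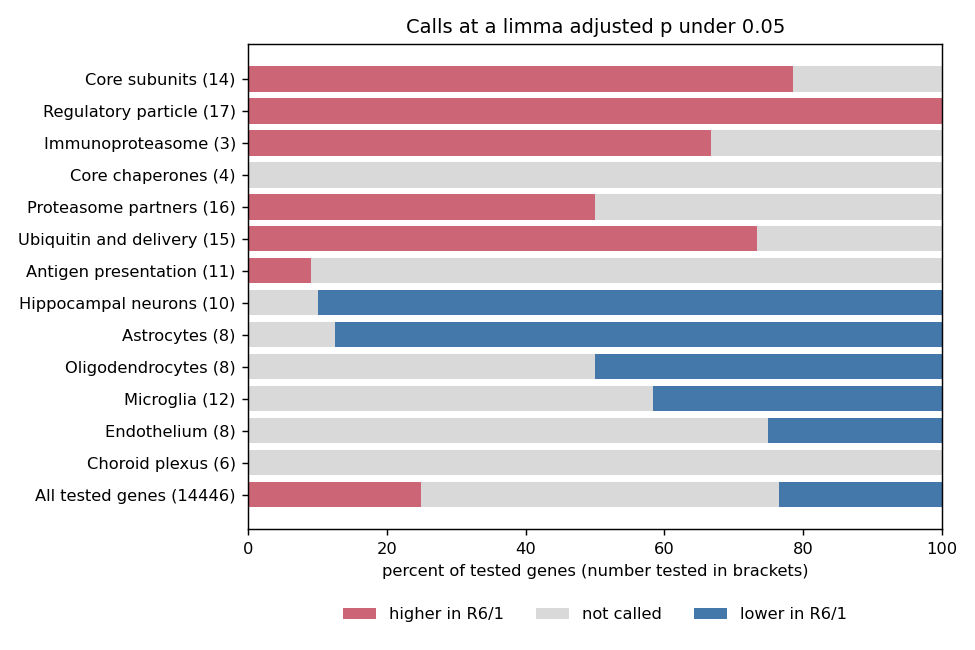
Percent of tested genes (x axis, 0 to 100; number tested in brackets) called higher, not called or called lower in R6/1 by limma (adjusted p under 0.05), for groups of proteasome genes, related lists, cell type markers and all tested genes. Regulatory particle subunits among the members are all higher, and cell type markers are lower or not called. All tested genes divide into 24.8% higher and 23.5% lower.

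Within the marker lists, the named genes with the largest differences were the pyramidal neuron gene Wfs1 at -1.76 (limma adjusted p = 1.82e-11), the kinase Camk2a at -1.18 (limma adjusted p = 2.76e-13) and the synaptic gene Snap25 at -0.51 (limma adjusted p = 8.48e-09), all log2 fold changes. In astrocytes these were Slc1a2 at -0.73, Aqp4 at -0.70 and Gja1 at -0.62. Among oligodendrocyte markers, Mbp at -0.54 and Mog at -0.28 were lower. In microglia the largest were Cd68 at -0.72, Itgam at -0.66 and P2ry12 at -0.52, and in endothelium Slco1c1 at -0.61 and Tek at -0.51, each past the limma threshold. The lowest WT mean was 9.18 RPKM among the neuron markers, 19.4 among the astrocyte markers and 10.9 among the oligodendrocyte markers. The median WT mean over all tested genes was 8.27 RPKM. Of 6 choroid plexus markers 0 were called, although their sum ranged from 21.0 to 1061 RPKM among WT and from 35.8 to 1729 RPKM among R6/1 libraries. With that sum as a covariate 37 members were higher and 1 lower.

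The members are scattered over the genome, on 16 chromosomes, and 47 of 50 were placed by name on the NCBIM37 annotation. Their starts lay mostly outside the authors' deposited lamin B1 domains. Of the 46 tested members placed, 2 (4.35%) started in a WT domain and 1 (2.17%) in an R6/1 domain, against 13.0% and 7.99% of 12827 tested genes. Psma2 (chr13:14705521-14719674, plus strand) was in a domain in both genotypes and Psma6 (chr12:56485209-56519441, plus strand) in the WT list only. Both were higher in R6/1, Psma6 with a log2 change of 0.16 (limma adjusted p = 0.00742). With 2 such genes, no relation between domains and expression could be tested within the members.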

How the data were processed

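RNA was measured in 18 libraries of mouse hippocampus, 9 per genotype, grouped by the genotype in their labels. The authors deposited RPKM values (reads per kilobase, scaled for depth) per gene symbol. The submitters' processing notes name TopHat, DESeq2 and the mm9 build; the counter, its annotation and its use of strand are not given in the sources used here. The authors' deposited table of the comparison holds a mean coverage signal per gene, a log2 fold change with its error, a test score and p-values. The deposited lamin B1 domain lists hold a score per domain, which was not used. The number of columns with per-sample values that went unused was 0.

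Genes whose mean reached 0.5 RPKM were tested two-sided with limma 3.58.1 in R 4.3.3, by lmFit and eBayes (trend = TRUE) on log2(RPKM + 0.5). P-values were adjusted by Benjamini-Hochberg, and an adjusted p under 0.05 was a call. Fold changes on this scale understate the change of low genes. The test was also run on simulated data with genes independent of each other and few of them changed. In the real data 48.3% of tested genes were called, so that run cannot show how the test behaves here. Python 3.11.15 with numpy 2.4.6 and pandas 2.3.3 made the summaries. Reads were recovered from the steps of the values, which were whole within 0.05 of a read for at least 99.8% of values below 1000 reads. Full values are given for the catalytic subunits and their inducible counterparts, the activators and Psmf1, the 2 called members of each class with the largest difference, and up to 3 called genes of each other list; 1 gene that this rule names is not reported here. The members and lists were chosen with earlier results of these data known, so no list was tested. Alternatives were other pseudocounts, filters, scalings and models, a replicate block, an Xist covariate, marker covariates added after seeing the data, leaving out each library, and the authors' deposited comparison. Identity between proteins was not analysed here.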

Additional observations from a re-analysis of the deposited data

Results flagged for a closer look

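Of 40 groups of 9 libraries examined (20 named members in each genotype), 6 held a library far from the others by Dixon's criterion, where chance gives about 2. The high libraries were WT replicate 2 for Psma2 at 76.95 RPKM (the next was at 69.4) and WT replicate 5 for Psmb8 at 4.71 RPKM (next 3.15). The low libraries were R6/1 replicate 5 for Psmb3 at 57.4 RPKM (next 67.8), R6/1 replicate 7 for Psmb7 at 93.5 RPKM (next 103.3), R6/1 replicate 9 for Psmc2 at 53.1 RPKM (next 58.7) and WT replicate 7 for Psmd12 at 28.7 RPKM (next 31.5). All 6 genes kept their call and direction in each of the 18 fits that left out a single library.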

How the results depend on the processing

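Members called higher numbered between 35 and 42, and members called lower stayed at 1, under every alternative except the covariate for hippocampal neuron markers, added after seeing the data: there 6 members were higher and 0 lower, and over all genes 595 were higher and 453 lower. Leaving out single libraries gave 35 to 41 members higher and 1 lower (all genes: 3422 to 3673 higher, 3236 to 3503 lower), and 36 members were called in all 18 such fits. With equal totals of reads 5110 genes were higher and 2526 lower. The authors' deposited comparison had 37 members higher and 1 lower, with 24.3% of all genes higher.

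Among the members given in full, signs turned in 5 cases: Psmb8 fell to -0.92 and Psmd10 to -0.0020 (log2) with the neuron covariate, neither called, and Psmb9, never called, was 0.043 with the microglia covariate, 0.042 without WT replicate 5 and 0.038 without R6/1 replicate 8 (leave-one-out range -0.16 to 0.042). Among the other tested members signs turned in 12 cases over 5 genes, 0 of them called: Psmd9 was -0.34 and Psmb11 0.35 with the neuron covariate, and the core chaperones Psmg2, Psmg3 and Psmg4, not called in the fit reported, made up the rest. The cause was not tested. With the replicate number as a block, 39 members were higher and 1 lower (all genes: 3666 and 3467), and Psmb5 passed (limma adjusted p = 0.0351). Same-numbered libraries had correlations of deviations from -0.0533 to 0.237, and 2 of the 9 numbers matched best with their own. The labels do not say whether a number pairs libraries, and these correlations cannot decide it. With the block the median standard error of the members was 0.038, against 0.0431 without it. Depth limits the low members Psma8, Psmb9, Psmb8, Psmb11 and Psmc3ip. Protein identity, planned as a description, was not run.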
